A study of Mus musculus with 11 samples.

Results

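Collagens are the structural proteins of the extracellular matrix, and the genes described here are those whose mouse symbol begins with Col followed directly by a digit. The count files held 38561 genes, of which 21263 were annotated as protein-coding, and 45 of these met the rule. Of the 45 genes, 44 encode collagen chains and 1, Col4a3bp, encodes a lipid transfer protein that shares only its name with them and is given apart. The 44 chains were 11 fibrillar collagens, 8 basement membrane collagens (the 6 chains of type IV, Col15a1 and Col18a1) and 25 others. The symbol was the only criterion.

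RNA had been isolated from freshly dissected facial processes of mouse embryos at embryonic day 10.5 (E10.5), that is, the mandibular and maxillary processes of the first branchial arch and the nasal processes together. The 11 libraries carried 4 genotype labels: 2 were wild type (wt), 3 were homozygous for an Rspo2 mutation (Rspo2KO), 3 were homozygous for a Wnt9b mutation (Wnt9bKO) and 3 were homozygous for both (DKO). All were of a strain labelled Mixed, and no library received an agent. The study asked how Wnt9b, a WNT ligand made by the ectoderm, and Rspo2, a secreted potentiator of WNT signalling made by the underlying mesenchyme, act together in the growing face. The mutations are germline, so a gene mutant by label was mutant in every cell of that embryo. The tissue was a mixture of ectoderm, neural crest mesenchyme, vessels and blood. In such bulk samples fewer cells of a type and less RNA per cell cannot be told apart. Whether a library came from 1 embryo or from several is not given in the sources used here, so the p-values measure the spread between these samples, which may in part be technical.

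A collagen molecule is a triple helix of 3 chains, which may be copies of the same chain or products of different genes. Fibrillar collagens assemble into the banded fibrils of mesenchyme, skin, cartilage and bone, type IV collagen forms the sheet-like network of basement membranes, and the remaining types decorate fibrils, form beaded filaments or span the cell membrane. In the face of this age, mesenchyme of neural crest origin lies between an ectodermal epithelium and a network of vessels, each resting on a basement membrane, and neither cartilage nor bone has yet formed.

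Library totals ran from 11136166 to 18017344 counts, and collagens took 0.238% to 0.55% of them. Some features of the libraries went with the labels or against them. Rspo2 transcript was at 0.926 to 1.29 RPKM in the Rspo2KO libraries against 2.90 and 3.13 in wt, but the library labelled Wnt9bKO 2 had 0.559 RPKM and the library labelled DKO 3 had 3.04, so the Rspo2 counts of these 2 libraries go against their labels. Wnt9b transcript was not lower in any Wnt9bKO or DKO library (3.58 to 5.16 RPKM, against 2.39 and 2.97 in wt), and therefore does not check that label. All wt and DKO libraries had the female transcript Xist at 37.8 to 81.8 RPKM, whereas all Rspo2KO and Wnt9bKO libraries had it at 0.0457 to 0.108 RPKM, with the Y-linked Ddx3y at 11.1 to 14.6 RPKM. Small nuclear RNA genes took 349 to 413 CPM (counts scaled to a common library total) in wt and Rspo2KO but 71.2 to 84.9 CPM in Wnt9bKO and DKO, so that the Wnt9b label and a difference in how the libraries were made cannot be told apart. Tissue from outside the facial processes also varied, since 7 markers of skeletal and heart muscle summed to 50.8 CPM in wt 1 and to 5.12 to 14.01 CPM in the other 10 libraries, and 6 markers of forebrain and eye to 138 CPM in Wnt9bKO 2 and to 56.1 to 98.7 CPM in the others. RPKM here are CPM per kilobase of exon, with the library total scaled by edgeR's TMM factors.

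The promoters of the collagens differ in type, and the 6 type IV genes are arranged in 3 head-to-head pairs. The pairs are Col4a1 with Col4a2, the chains of the type IV collagen of nearly all basement membranes, and Col4a4 with Col4a3, which belong to specialised basement membranes such as that of the kidney glomerulus, and Col4a6 with Col4a5, whose starts lie 1308 bases apart, a stretch too long to print. RefSeq held a promoter window for 35 of the 44 collagens. The stretches below were chosen because they carry the shared starts and because Col18a1, Col5a1 and Col3a1 stand for the GC-rich and GC-poor promoters among the genes that rose. Each is written 5′ to 3′ (GRCm38.p6), with capitals marking a GC box (GGGCGG, or CCGCCC when read on the other strand). The Col4a1 and Col4a2 entry is the plus strand of the 22 bases that lie between their start sites and belong to both transcripts, at chr8:11312805-11312826. The Col4a4 and Col4a3 entry is the plus strand of the 71 bases between their starts, at chr1:82586850-82586920. The other stretches are the 100 bases before a start site, read on the strand of the gene: Col18a1 at chr10:77166531-77166630 on the minus strand, Col5a1 at chr2:27886325-27886424 on the plus strand and Col3a1 at chr1:45311438-45311537 on the plus strand.
Col4a1 and Col4a2: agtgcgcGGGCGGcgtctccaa
Col4a4 and Col4a3: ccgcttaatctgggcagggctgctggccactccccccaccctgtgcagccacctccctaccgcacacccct
Col18a1: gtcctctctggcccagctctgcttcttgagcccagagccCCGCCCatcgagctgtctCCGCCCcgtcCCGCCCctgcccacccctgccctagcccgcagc
Col5a1: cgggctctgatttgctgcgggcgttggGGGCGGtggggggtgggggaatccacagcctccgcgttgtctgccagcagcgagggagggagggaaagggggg
Col3a1: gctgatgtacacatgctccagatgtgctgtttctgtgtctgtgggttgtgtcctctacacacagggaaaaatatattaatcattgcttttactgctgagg

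In the 250 bases before the start, searched on both strands, a GC box was present in 57.9% of the 38 collagen windows and in 32.7% of all 32851 windows. A CCAAT box (CCAAT) was in 34.2% of collagen windows and 33.8% of all windows, and a TATA box (TATAAA) in 13.2% and 12.4%. The core letters of a TCF/LEF site (CTTTGA), the element bound by the effectors of WNT signalling, were in 23.7% of collagen windows, those of Col13a1, Col15a1, Col19a1, Col20a1, Col5a3, Col6a1, Col6a2, Col9a1 and Col9a2, against 13.8% of all windows. Of the genes with these letters, only Col15a1 and Col13a1 were called in any comparison described below. Several genes called higher in Wnt9bKO against wt had no window to search: Col1a1, Col2a1, Col5a2, Col12a1, Col14a1 and Col22a1. A match in this window is a description of the letters and not of a bound site. The 22 bases shared by Col4a1 and Col4a2 are exonic in both genes, and whether reads were counted by strand is not given in the sources used here.

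The wild-type face expressed a restricted set of collagens at high level. Col3a1, which encodes the fibrillar collagen of soft mesenchyme and vessel walls, was highest at 71.5 ± 0.63 RPKM (SD, n = 2), above 97.8% of protein-coding genes, and alone made up 20.6% of the summed collagen level. Col4a1 followed at 43.0 ± 4.3 RPKM and Col4a2 at 29.1 ± 2.3 RPKM. Next came Col9a1, a cartilage collagen that also occurs in embryonic epithelia, at 26.6 ± 1.9 RPKM, Col18a1, the basement membrane proteoglycan from which endostatin is cleaved, at 21.5 ± 1.9 RPKM, and Col2a1, the main fibrillar collagen of cartilage, at 21.4 ± 0.15 RPKM. The Col9a1 libraries (25.3 and 27.9 RPKM) lay above those of Col18a1 (20.2 and 22.9) and Col2a1 (21.3 and 21.5), while Col18a1 and Col2a1 overlapped.

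Col5a2, a chain of the type V collagen that nucleates fibrils, stood at 18.6 ± 0.48 RPKM, Col26a1 at 17.6 ± 0.065 RPKM and the transmembrane collagen Col23a1 at 17.2 ± 1.0 RPKM, the last 2 overlapping. Col1a2 was at 15.5 ± 0.63 RPKM, Col8a2 at 11.1 ± 0.92 RPKM and Col11a1, a fibril-nucleating chain of cartilage, at 8.03 ± 0.23 RPKM. These 12 genes made up 86.6% of the summed collagen level in wt. Col1a1, the most abundant collagen gene of bone and skin later in life, reached only 2.69 ± 0.005 RPKM in wt. At the bottom, Col6a5 had at most 3 counts in every library, which is the floor used here, and Col4a3, Col6a4 and Col6a6 were at 0.112 RPKM or less throughout. These 4 did not pass the filter on low counts, so that 40 of the 44 chains were tested.

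**Figure D1:**
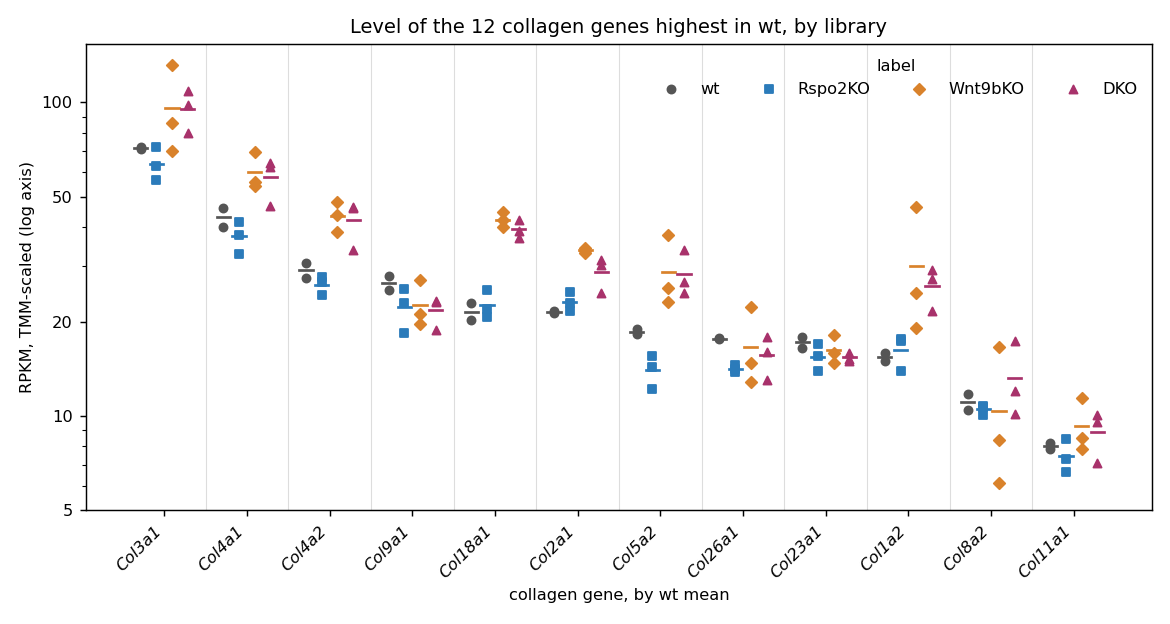
Level of the 12 collagen genes highest in wt (x axis) in RPKM on a log axis (y axis), with a point for each library, coloured by genotype label, and a short line at the mean of each label. Col18a1 is the gene whose Wnt9bKO and DKO points (37.0 to 44.7 RPKM) stand farthest above its wt and Rspo2KO points (20.2 to 25.2 RPKM), while the points of Col9a1 and Col23a1 overlap between labels.

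Comparison of Wnt9bKO with wt sets the libraries labelled as mutant for Wnt9b only against wild type, with the low Rspo2 of Wnt9bKO 2 given above. In Wnt9bKO, 14 of 40 collagens (35.0%) were higher and 0 were lower at an adjusted p below 0.05 (edgeR quasi-likelihood test, Benjamini-Hochberg adjustment over 17317 genes). Of all genes tested, 16.8% were called higher and 16.0% lower, so with all libraries the collagens were called higher at a rate above the background and lower at a rate below it. The median log2 fold change of the 40 collagens was 0.39, beside 0.01 over all genes. The genes called were 6 of 11 fibrillar, 4 of 7 basement membrane and 4 of 22 other collagens. Collagen transcripts are long and GC-rich, with a median exonic length of 7017 bases against 4015 bases over all genes tested and a median GC content of 56.1% against 49.95%. With an offset for GC content and length the count was 8 of 40, beside 14.5% of all genes, and Col12a1, Col14a1, Col1a2, Col25a1, Col27a1 and Col5a2 were no longer called. These were not the GC-rich members: their GC content was 46.8% to 50.3%, except for Col27a1 at 59.8%. The genes still called had 52.7% (Col22a1) to 60.5% (Col4a2). Why the offset removed these calls was not tested. The count was 5 of 43 (11.6%) without wt replicate 1, beside 8.36% of all genes, and 4 of 43 (9.30%) without wt replicate 2, beside 9.72% of all genes, where the remaining wt library was assumed to vary like the other groups and 43 collagens passed the filter. The share of collagens called higher was therefore near that of all genes when either wt library was left out. Without Wnt9bKO replicate 2 the count was 17 of 40 (42.5%), beside 16.3% of all genes.

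Col18a1 rose most reliably. Its gene, on the minus strand of chromosome 10 from 77052178 to 77166548, is the one with 3 GC boxes in the stretch printed above. RefSeq also holds a second start of Col18a1, at 77113705, with none of the motifs searched in the 250 bases before it. Counts per gene do not tell these starts apart. Col18a1 was at 22.9 and 20.2 RPKM in wt, 25.2, 20.7 and 22 in Rspo2KO, 42.2, 44.7 and 40.04 in Wnt9bKO and 38.8, 42.1 and 37.0 in DKO. Every Wnt9bKO and DKO library therefore lay above every wt and Rspo2KO library, the library labelled DKO 3 included. The log2 fold change from wt to Wnt9bKO was 0.98 ± 0.12 (SE; adjusted p = 5.5e-05), and that from Rspo2KO to DKO, which compares entirely different libraries, was 0.80 ± 0.10 (adjusted p = 0.00013). Col15a1, the related multiplexin of vessel and muscle basement membranes, was at 2.99 and 3.10 RPKM in wt and at 5.04, 3.49 and 4.43 RPKM in Wnt9bKO, a log2 fold change of 0.50 ± 0.17 (adjusted p = 0.031). From Rspo2KO to DKO the Col15a1 change was 0.31 ± 0.15 (adjusted p = 0.16).

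The paired chains Col4a1 and Col4a2 rose together. Col4a1 was at 46.0 and 39.97 RPKM in wt, 37.7, 32.9 and 41.6 in Rspo2KO, 69.5, 55.9 and 54.2 in Wnt9bKO and 62.1, 64.3 and 46.9 in DKO. Col4a2 was at 30.7 and 27.5 RPKM in wt, 27.8, 24.3 and 26.7 in Rspo2KO, 48.2, 43.6 and 38.7 in Wnt9bKO and 45.9, 46.3 and 33.9 in DKO. For both genes the lowest of the Wnt9bKO and DKO libraries, DKO 3, was above the highest wt library, wt 1. The log2 fold changes from wt to Wnt9bKO were 0.48 ± 0.16 for Col4a1 (adjusted p = 0.032) and 0.58 ± 0.14 for Col4a2 (adjusted p = 0.0071). Their ratio, Col4a1 over Col4a2, ran only from 1.28 to 1.56 over the 11 libraries.

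The remaining type IV chains were lower in level and less even. The X-linked pair Col4a5 and Col4a6 form a second network in skin and smooth muscle. Col4a6 was at 1.45 and 1.10 RPKM in wt, 1.06, 1.13 and 1.08 in Rspo2KO, 1.54, 1.92 and 1.20 in Wnt9bKO and 1.49, 1.91 and 1.51 in DKO. It passed the test against Rspo2KO in DKO (log2 fold change 0.59 ± 0.18, adjusted p = 0.034) and in Wnt9bKO (0.51 ± 0.18, adjusted p = 0.047), and not against wt. The second of these calls held under 9 of the 21 alternatives that gave a value. Col4a5 did not pass in any comparison, with a log2 fold change of -0.05 ± 0.18 from wt to Wnt9bKO. Col4a4 was near the floor, with 1 to 12 counts per library.

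Endothelial cells are a main source of type IV collagen and Col15a1, and their 8 markers were given beside it. The summed level of these markers was 187 and 204 CPM in wt, 214 to 237 in Rspo2KO, 214 to 230 in Wnt9bKO and 211 to 233 in DKO, and no marker was at 0. From wt to Wnt9bKO 3 of the 8 passed the test as higher, Kdr among them, and 2 as lower, Emcn among them. Of all genes, 16.8% and 16.0% were called so. From Rspo2KO to DKO 0 were higher and 1 was lower, beside 9.17% and 9.07% of all genes. The 9 markers of surface epithelium summed to 218 to 258 CPM in every library. The part of these cells in the type IV levels was not tested.

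Among the fibrillar collagens, Col2a1 was the most even. It was at 21.5 and 21.3 RPKM in wt, 24.8, 22.9 and 21.5 in Rspo2KO, 34.3, 33.2 and 33.7 in Wnt9bKO and 31.4, 30.4 and 24.7 in DKO. All 3 Wnt9bKO libraries were above all others, and DKO 3 was inside the range of Rspo2KO. The log2 fold change from wt to Wnt9bKO was 0.65 ± 0.12 (adjusted p = 0.00094). The partners of Col2a1 in cartilage fibrils did not pass the test: Col11a1 changed by 0.21 ± 0.17 (adjusted p = 0.38) and Col9a1 by -0.23 ± 0.16 (adjusted p = 0.27). The ratio of Col2a1 to Col9a1 was accordingly 0.772 and 0.844 in wt and between 1.26 and 1.69 in Wnt9bKO. It was 1.35, 0.996 and 0.846 in Rspo2KO and 1.36, 1.31 and 1.31 in DKO, so that Rspo2KO 1 lay inside the Wnt9bKO range. The 7 cartilage markers had summed levels of 180 and 213 CPM in wt, beside 160 to 254 CPM in Wnt9bKO. Matn1 was at 0 in every library. Of the 6 markers tested, 3 had a positive log2 fold change from wt to Wnt9bKO (median 0.04). Sox6 and Sox9 were the 2 that passed as higher and 0 passed as lower, beside 16.8% and 16.0% of all genes. From Rspo2KO to DKO, Sox6 passed as higher (0.59) and Sox5 as lower (-0.38), beside 9.17% and 9.07% of all genes.

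The type I chains were the most variable of the genes that rose. Col1a1 was at 2.69 and 2.68 RPKM in wt, 5.69, 4.205 and 5.54 in Rspo2KO, 12.4, 3.15 and 6.46 in Wnt9bKO and 8.18, 6.48 and 7.86 in DKO. Both wt libraries were below the other 9, and Wnt9bKO 2 was nearest to them. The log2 fold change from wt was 1.45 ± 0.38 in Wnt9bKO (adjusted p = 0.010), 1.48 ± 0.39 in DKO (adjusted p = 0.011) and 0.93 ± 0.38 in Rspo2KO (adjusted p = 0.35). Col1a2, the partner chain, was at 15.0 and 15.9 RPKM in wt, 17.6, 13.95 and 17.3 in Rspo2KO, 46.5, 19.1 and 24.6 in Wnt9bKO and 29.2, 27.3 and 21.6 in DKO. It rose in Wnt9bKO by 0.96 ± 0.27 (adjusted p = 0.015), and in DKO its change of 0.75 ± 0.27 had an adjusted p of 0.053.

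Type I collagen usually holds more Col1a1 than Col1a2 chains, yet Col1a2 transcript exceeded Col1a1 transcript in every library. The ratio of Col1a2 to Col1a1 in RPKM was 5.58 and 5.93 in wt, 3.09, 3.32 and 3.12 in Rspo2KO, 3.73, 6.08 and 3.81 in Wnt9bKO and 3.57, 4.21 and 2.75 in DKO. The wt ratios lay above those of all Rspo2KO and DKO libraries, and among the mutants only Wnt9bKO 2 was higher. The type V chains gave another uneven pair, with Col5a2 over Col5a1 at 2.72 and 3.12 in wt, 1.57, 2.28 and 1.82 in Rspo2KO, 2.57, 3.22 and 2.40 in Wnt9bKO and 2.56, 3.40 and 2.90 in DKO. The 3 Rspo2KO ratios were the lowest of the 11. No test was run on the ratios.

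Col5a2 itself was at 18.2 and 18.9 RPKM in wt, 12.2, 15.5 and 14.3 in Rspo2KO, 37.7, 25.6 and 23.1 in Wnt9bKO and 26.8, 33.9 and 24.6 in DKO. The levels fell in 3 separate bands, with Rspo2KO below wt and wt below all 6 others. From wt to Wnt9bKO it rose by 0.63 ± 0.19 (adjusted p = 0.020), and from Rspo2KO to DKO by 1.02 ± 0.17 (adjusted p = 0.00091), while the step from wt down to Rspo2KO did not pass (-0.41 ± 0.19, adjusted p = 0.41). Col5a1 rose in Wnt9bKO by 0.75 ± 0.20 (adjusted p = 0.0098) and Col27a1, a minor fibrillar collagen of cartilage, by 0.61 ± 0.22 (adjusted p = 0.047). Col3a1, the most abundant chain, was at 71.9 and 71.0 RPKM in wt, 56.7, 62.9 and 71.8 in Rspo2KO, 132, 70.1 and 86.2 in Wnt9bKO and 108, 98.3 and 79.8 in DKO. Its change of 0.43 ± 0.21 from wt to Wnt9bKO did not pass (adjusted p = 0.14), with Wnt9bKO 2 inside the range of wt.

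Of the 22 other collagens tested, Col12a1, Col14a1, Col22a1 and Col25a1 rose in Wnt9bKO. Col12a1 and Col14a1 are fibril-associated collagens of dense connective tissue and tendon. Col12a1 was at 2.94 and 3.33 RPKM in wt and 5.40, 5.49 and 4.27 RPKM in Wnt9bKO, a log2 fold change of 0.69 ± 0.16 (adjusted p = 0.0050). Col14a1 was at 0.471 and 0.353 RPKM in wt and 0.546, 0.883 and 0.589 RPKM in Wnt9bKO (0.72 ± 0.26, adjusted p = 0.043). It was the only collagen of these 4 whose DKO libraries (0.510, 0.408 and 0.389 RPKM) overlapped with wt. Col22a1, a collagen of tissue junctions, rose by 0.57 ± 0.17 (adjusted p = 0.017) and Col25a1, a transmembrane collagen best known from neurons, by 0.61 ± 0.17 (adjusted p = 0.015). With the offset for GC content and length Col22a1 alone of the 4 was still called, and the call of Col14a1, which DESeq2 did not make either, held under 12 of 22 alternatives.

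Type IX and type VI collagens were not called in any comparison. The type IX chain Col9a2 was at 3.86 and 4.29 RPKM in wt and 6.77, 2.64 and 3.29 RPKM in Wnt9bKO, so that the Wnt9bKO libraries lay on both sides of wt. The type VI chains, which form beaded filaments around cells, spread even more. Col6a1 was at 1.83 and 2.37 RPKM in wt and 4.66, 0.857 and 2.09 RPKM in Wnt9bKO, and Col6a3 at 0.709 and 0.984 RPKM in wt and 3.52, 0.483 and 1.22 RPKM in Wnt9bKO. The standard error of the Col6a3 log2 fold change (1.03 ± 0.54, adjusted p = 0.16) compares with 0.12 for Col18a1. Among abundant members, Col23a1 (-0.08 ± 0.11), Col26a1 (-0.09 ± 0.18) and Col8a2 (-0.10 ± 0.30) also did not pass from wt to Wnt9bKO. Col8a2, a chain of short network-forming type VIII collagen, was at 10.5 and 11.8 RPKM in wt and 16.6, 6.13 and 8.38 RPKM in Wnt9bKO. It was the only collagen called lower under any alternative, without Wnt9bKO replicate 1 (-0.62, adjusted p = 0.033), apart from Col1a1 in the interaction with no filter on low counts.

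**Figure D2:**
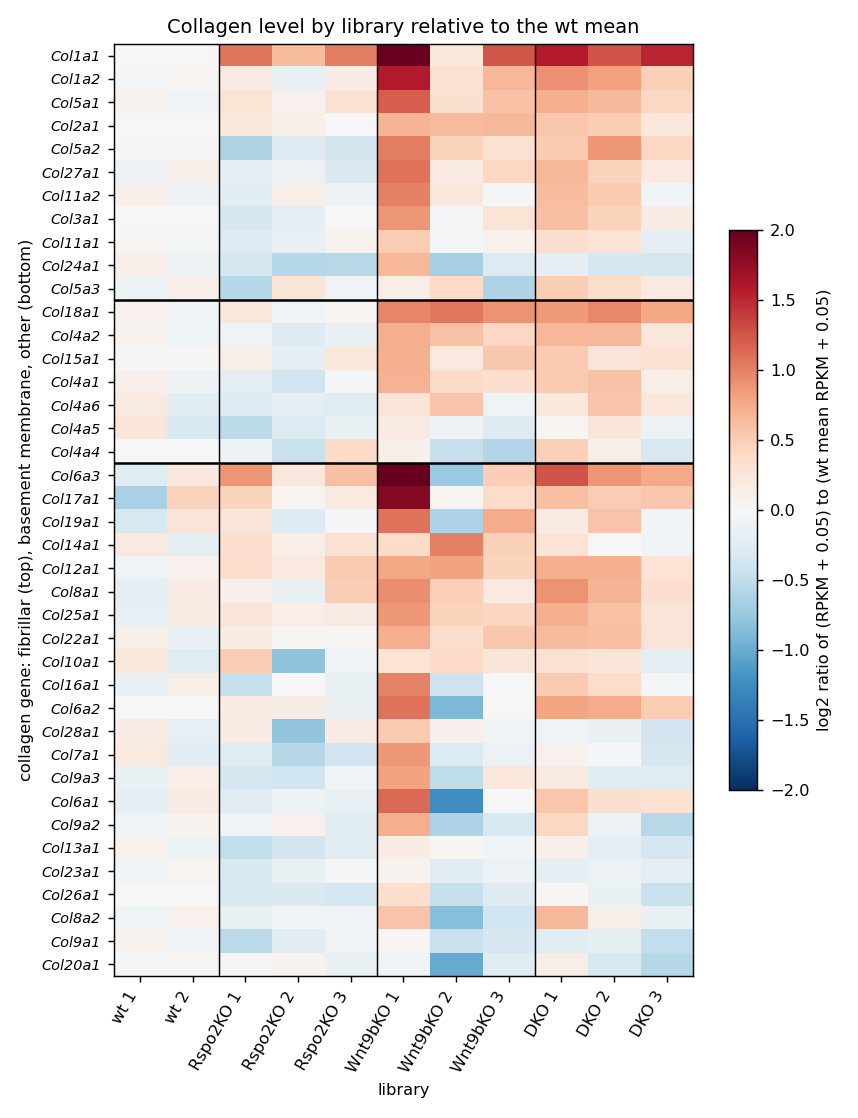
Level of the 40 collagens tested (rows, by class, separated by black lines) in the 11 libraries (columns), as the log2 ratio to the wt mean after adding 0.05 RPKM, with red above and blue below. The column of Wnt9bKO 1 is red for most genes, Wnt9bKO 2 is blue for Col6a1, Col6a2, Col6a3 and Col8a2, and the rows of Col18a1, Col4a1, Col4a2 and Col2a1 are above 0 in all Wnt9bKO and DKO columns.

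The 3 Wnt9bKO libraries were unlike each other in their collagens. Wnt9bKO 1 held the highest value of all 11 libraries for 29 of 40 collagens, whereas it was highest for 15.1% of all genes. Its median ratio to the mean of Wnt9bKO 2 and 3 was 1.57 over the collagens and 1.001 over all genes, and 13 of 40 collagens exceeded a ratio of 2, against 3.16% of all genes. Wnt9bKO 2 was the lowest of its label for 24 collagens and for 35.04% of all genes. Among the DKO libraries, DKO 1 was highest for 31 of 40 collagens and 31.8% of all genes, and DKO 3 was lowest for 35 of 40 collagens and 38.3% of all genes. The 8 markers of facial mesenchyme, all detected, summed to 1168, 618 and 901 CPM in Wnt9bKO 1, 2 and 3, beside 996 and 937 CPM in wt, 708 to 771 CPM in Rspo2KO and 736 to 878 CPM in DKO. The summed collagen level of Wnt9bKO 1, 2 and 3 had the same order as the markers, at 595, 402 and 425 RPKM, whereas DKO 3, lowest of its label for the collagens at 387 RPKM, was highest of its label for the markers. The part of mesenchyme content in the collagen levels was not tested.

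Comparison of DKO with Rspo2KO addresses the Wnt9b mutation where Rspo2 is also mutant by label, with the wt-like Rspo2 count of DKO 3 given above. It shares no library with the comparison of Wnt9bKO with wt. It also reverses the difference in sex transcripts, since the DKO libraries had Xist and the Rspo2KO libraries Ddx3y. In DKO, 9 of 40 collagens (22.5%) were higher and 0 lower, against 9.17% and 9.07% of all genes, with a median log2 fold change of 0.36 over the collagens and 0.00 over all genes. The 9 were Col18a1, Col5a2, Col4a2, Col4a1, Col27a1, Col4a6, Col22a1, Col2a1 and Col3a1. Of these, 7 were also called in Wnt9bKO against wt (Col18a1, Col22a1, Col27a1, Col2a1, Col4a1, Col4a2 and Col5a2), that is, 7 of the 14 genes called there and 7 of the 9 called here. How many of all genes were called in both comparisons was not counted, so this overlap cannot be read as particular to collagens. The count was 4 of 39 or 40 without Rspo2KO replicate 2, Rspo2KO replicate 3, DKO replicate 1 or DKO replicate 2, beside 4.84% to 5.67% of all genes. Without Rspo2KO replicate 1 it was 6 of 40 (15.0%), beside 11.7% of all genes, so the collagen share was nearer to that of all genes there. Without DKO replicate 3 it was 9 of 40, beside 7.73% of all genes.

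After Col18a1 and Col5a2, the smallest p-values from Rspo2KO to DKO were those of Col4a2, by 0.68 ± 0.13 (adjusted p = 0.0022), and Col4a1, by 0.63 ± 0.14 (adjusted p = 0.0070). Col27a1 rose by 0.67 ± 0.20 (adjusted p = 0.030) and Col3a1 by 0.58 ± 0.19 (adjusted p = 0.045). Col2a1 passed with a smaller change of 0.32 ± 0.10 (adjusted p = 0.044), and here DKO 3 and the highest Rspo2KO library overlapped. Col1a1 did not pass (0.55 ± 0.32, adjusted p = 0.26), nor did Col12a1, whose DKO libraries overlapped with Rspo2KO.

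**Figure D3:**
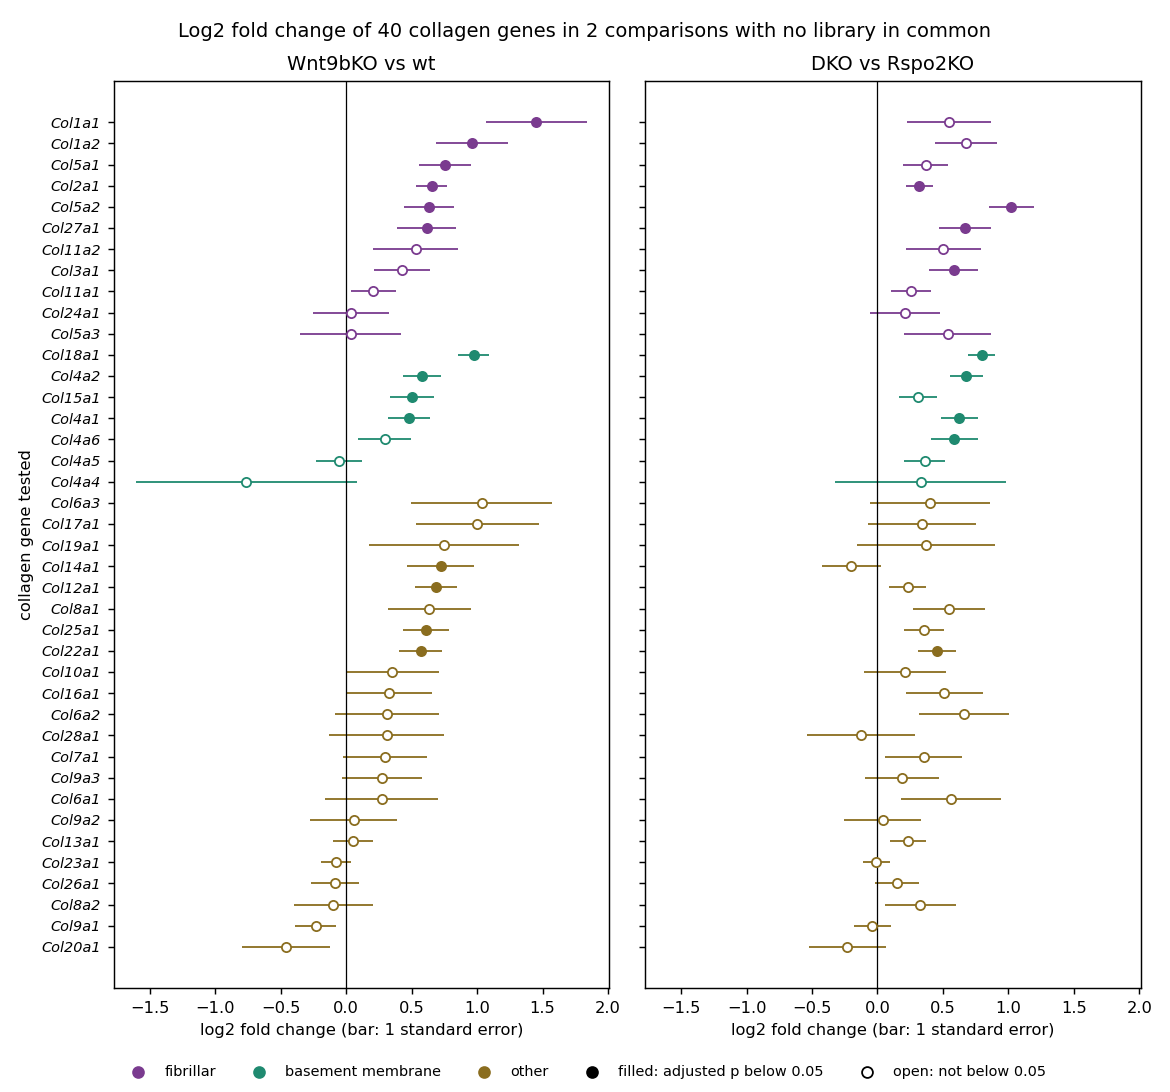
Log2 fold change (x axis, with 1 standard error) of the 40 collagens tested (y axis, coloured by class and ordered by the left panel) from wt to Wnt9bKO and from Rspo2KO to DKO. Filled points passed an adjusted p of 0.05, 14 on the left and 9 on the right, and all filled points lie to the right of 0.

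Comparison of DKO with wt gave 9 collagens higher and 0 lower, against 14.3% and 13.1% of all genes, with a median log2 fold change of 0.38. The 9 were Col18a1 (0.87 ± 0.12, adjusted p = 0.00015), Col1a1, Col4a2, Col12a1, Col2a1, Col5a2, Col22a1, Col25a1 and Col5a1. This count depended on single libraries more than the others: it was 1 of 43 without wt replicate 1, beside 5.98% of all genes, 2 of 43 without wt replicate 2, beside 7.78%, 3 of 39 or 40 without DKO replicate 1 or DKO replicate 2, beside 10.4% and 11.4%, and 15 of 40 without Wnt9bKO replicate 1, a library in neither group compared, beside 16.3%. With an offset for GC content and length it was 5 of 40, beside 11.7%. In each of these settings but that without Wnt9bKO replicate 1, the share of collagens called higher was near or below that of all genes. Comparison of Wnt9bKO with Rspo2KO, whose libraries have the same sex transcripts, gave 13 higher and 0 lower, against 12.5% and 13.5% of all genes. The 13 included Col18a1 (0.90 ± 0.10, adjusted p = 4e-05), Col5a2 (1.04 ± 0.17, adjusted p = 0.00063), Col2a1 (0.55 ± 0.10, adjusted p = 0.0017) and the transmembrane collagen Col13a1 (0.41 ± 0.14, adjusted p = 0.041). The count was 6 of 40 without Rspo2KO replicate 2, beside 7.48% of all genes, and 8 of 39 without Rspo2KO replicate 3, beside 6.87%. It was 7 of 40 without Wnt9bKO replicate 1, beside 11.9%, and 20 of 40 without Wnt9bKO replicate 2, beside 11.3%. Without Rspo2KO replicate 1 it was 9 of 40 (22.5%), beside 15.1% of all genes. These comparisons share libraries with each other and with those above, so their calls are not independent.

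Set against the Wnt9b label alone, 9 of 40 collagens (22.5%) had all 6 Wnt9bKO and DKO libraries above all 5 wt and Rspo2KO libraries, and 0 had them all below, beside 10.1% and 10.6% of all genes. The 9 were Col18a1, Col4a1, Col4a2, Col5a1, Col5a2, Col1a2, Col27a1, Col22a1 and Col25a1. The same split separates the libraries by small nuclear RNA, given above, and by blood: the summed level of 6 erythroid markers was 1738 to 2843 CPM in the 6 libraries and 3936 to 5751 CPM in the 5. The part of either in the collagen levels was not tested. For Col18a1 the lowest value of the 6 was 37.0 RPKM and the highest of the 5 was 25.2 RPKM, the widest gap, and for Col5a1 these were 7.95 and 7.90 RPKM, so that the gap was narrow.

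The Rspo2 label was compared from wt to Rspo2KO and from Wnt9bKO to DKO. Neither gave a collagen past the threshold with the filter on low counts. Both set libraries with high Xist (wt, DKO) against libraries with Ddx3y (Rspo2KO, Wnt9bKO). The Rspo2 label and sex therefore cannot be told apart in them. From wt to Rspo2KO 0 of 40 were called by edgeR and 0 by DESeq2, in a comparison where edgeR called 0.0346% of all genes. At an unadjusted p below 0.05 there were 4 (Col1a1 and Col12a1 with higher, Col13a1 and Col5a2 with lower values), against 11.9% of all genes, and the median log2 fold change was -0.08. With no filter on low counts 1 was called, Col1a1 (0.94, adjusted p = 7.5e-05). From Wnt9bKO to DKO, where Rspo2 was lost in addition to Wnt9b, 0 of 40 were called by either tool, with 2 (Col14a1 and Col2a1) at an unadjusted p below 0.05, against 5.63% of all genes, and 0.121% of all genes called. This comparison holds both libraries whose Rspo2 counts go against their labels. Without Wnt9bKO 2 and DKO 3 the count was again 0. The interaction asks whether the change from wt to Wnt9bKO differed from that from Rspo2KO to DKO. It was called for 0 collagens by either tool and for 0.0635% of all genes. Col14a1 (-0.92 ± 0.34) and Col12a1 (-0.46 ± 0.21) were at an unadjusted p below 0.05, against 9.44% of all genes. The interaction sets wt and DKO, with high Xist, against Wnt9bKO and Rspo2KO, with Ddx3y. Genotype and sex therefore cannot be told apart in it, and it also holds both libraries whose Rspo2 counts go against their labels. These counts do not show that the levels were equal, since the standard error of a log2 fold change from wt to Rspo2KO was 0.38 for Col1a1.

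The 11 fibrillar genes summed to 148 and 147 RPKM in wt, 134, 137 and 150 in Rspo2KO, 296, 171 and 196 in Wnt9bKO and 230, 220 and 178 in DKO. The 8 basement membrane genes summed to 112 and 97.4 RPKM in wt, 99.8, 87.4 and 101 in Rspo2KO, 174, 156 and 144 in Wnt9bKO and 160, 166 and 129 in DKO. In both classes all Wnt9bKO and DKO libraries were above the others. The 25 other genes summed to 94.2 and 96.0 RPKM in wt, 79.4 to 90.1 in Rspo2KO, 75.5 to 125 in Wnt9bKO and 79.9 to 106 in DKO, and these ranges overlapped. The ratio of the Wnt9bKO mean to the wt mean was 1.49 for the fibrillar, 1.51 for the basement membrane and 1.002 for the other collagens. The last sum rests mainly on Col9a1, Col26a1, Col23a1 and Col8a2, and gene by gene 17 of the 22 other collagens tested had a positive log2 fold change from wt to Wnt9bKO (median 0.31). The classes were not tested against each other.

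**Figure D4:**
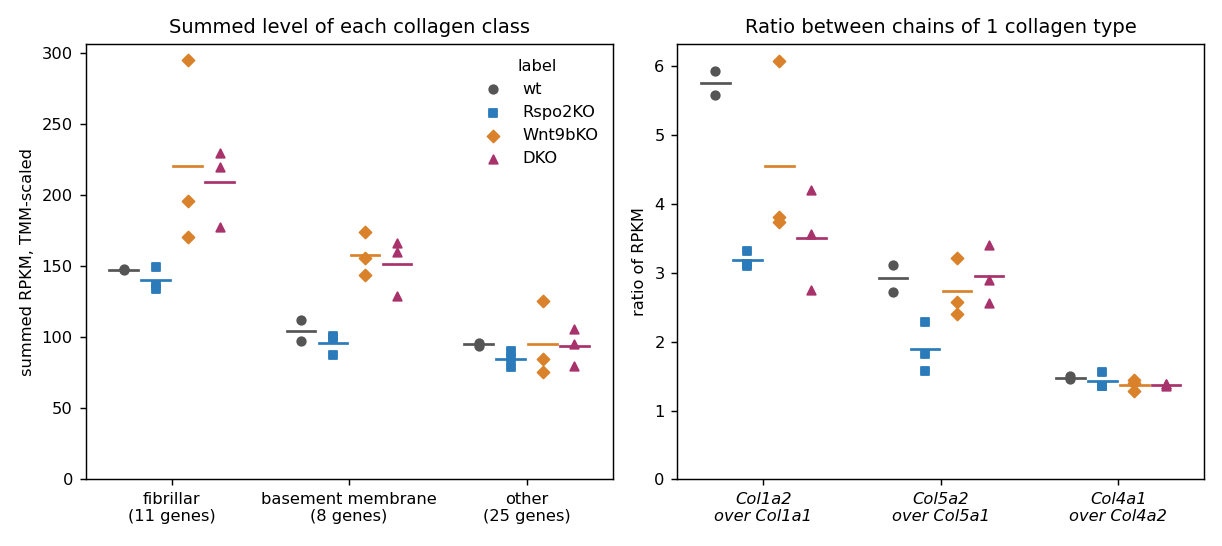
Left, summed RPKM of the 3 collagen classes (y axis, from 0) by library, with points coloured by genotype label and lines at the means; right, the RPKM ratio of chains that form 1 collagen type. Fibrillar and basement membrane sums are above wt in all Wnt9bKO and DKO libraries, Col1a2 over Col1a1 is 5.58 and 5.93 in wt and 3.09 to 3.32 in Rspo2KO, and Col4a1 over Col4a2 stays between 1.28 and 1.56.

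Collagen chains need enzymes and chaperones before they can be secreted, and the genes of this route are given beside the 16.8% of all genes called higher and 16.0% called lower from wt to Wnt9bKO, and the 9.17% and 9.07% from Rspo2KO to DKO. From wt to Wnt9bKO, 5 of 19 genes of chain modification and folding were higher and 2 lower (median log2 fold change 0.07), and from Rspo2KO to DKO 3 were higher and 2 lower (0.13). Crtap, a subunit of the prolyl 3-hydroxylase complex, was at 3.58 and 3.88 RPKM in wt, 7.94, 5.75 and 4.95 in Rspo2KO, 10.8, 8.84 and 10.6 in Wnt9bKO and 10.9, 11.4 and 9.89 in DKO, and rose by 1.43 ± 0.19 from wt to Wnt9bKO (adjusted p = 0.00014). Serpinh1, the collagen chaperone HSP47, was at 341 and 376 RPKM in wt, 266, 339 and 346 in Rspo2KO, 228, 179 and 198 in Wnt9bKO and 226, 234 and 200 in DKO. It fell by 0.83 on the log2 scale (SE 0.14, adjusted p = 0.00062), opposite to the chains it binds. The collagen galactosyltransferase Colgalt1 also fell (-0.63 ± 0.11, adjusted p = 0.00069), and P4hb, a subunit of prolyl 4-hydroxylase, rose (0.67 ± 0.15, adjusted p = 0.0034).

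Of 9 genes of procollagen export, 4 were higher and 1 lower in Wnt9bKO (median 0.21), and 3 and 1 from Rspo2KO to DKO (0.20). Mia3, which loads procollagen into large carriers, rose by 0.59 ± 0.12 (adjusted p = 0.0016), and the coat subunit Sec13 fell (-0.86 ± 0.12, adjusted p = 0.00018). None of 8 genes of propeptide removal (median 0.18) and none of the 10 tested genes of degradation (0.09) was called from wt to Wnt9bKO, nor was any from Rspo2KO to DKO (-0.07 and 0.13). Of the 14 degradation genes found, 4 did not pass the filter on low counts, among them Mmp8 and Mmp13, at 3 counts or fewer in every library. Of 5 cross-linking enzymes 0 were higher and 1, Loxl3, lower in Wnt9bKO (-0.12), and 0 were called from Rspo2KO to DKO (0.18).

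Proteins that bind collagens were counted in the same way. Of 17 basement membrane partners, 7 were higher and 1 lower in Wnt9bKO (median 0.32), and 3 were higher and 0 lower from Rspo2KO to DKO (0.10). From wt to Rspo2KO none was called, with a median of 0.24 over these partners and of -0.15 over the 7 basement membrane collagens tested. The laminin chain Lamc1 was at 9.9999 and 10.2 RPKM in wt, 14.2, 11.9 and 12.7 in Rspo2KO, 16.3, 17.1 and 17.4 in Wnt9bKO and 16.9, 16.9 and 15.1 in DKO, and rose by 0.74 ± 0.11 (adjusted p = 0.00020) and 0.33 ± 0.09 (adjusted p = 0.022) in the 2 comparisons. The proteoglycan perlecan, Hspg2, rose in Wnt9bKO (0.75 ± 0.20, adjusted p = 0.0099) and had a change of -0.31 ± 0.17 from Rspo2KO to DKO (adjusted p = 0.24). Of 9 fibril partners tested, 5 were higher and 1 lower in Wnt9bKO (0.54), with fibronectin, Fn1, at 0.71 ± 0.16 (adjusted p = 0.0046), and 0 were called from Rspo2KO to DKO (0.15). From wt to Rspo2KO 0 of these were called, but 8 of 9 had a positive log2 fold change (median 0.42). The 10 fibril partners found summed to 405 and 425 CPM in wt, 525 to 639 in Rspo2KO, 570 to 648 in Wnt9bKO and 545 to 662 in DKO. Thus wt was lowest and the mutant labels overlapped.

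Of 9 collagen receptors tested, 2 were higher and 0 lower in Wnt9bKO (median 0.12), against 16.8% and 16.0% of all genes, and 2 were higher and 1 lower from Rspo2KO to DKO (0.27), against 9.17% and 9.07%. Those higher in both were the integrin subunit Itgb1 (0.83 ± 0.13, adjusted p = 0.00040, and 0.51 ± 0.12, adjusted p = 0.0073) and Adgrg1 (1.38 ± 0.21, adjusted p = 0.00025, and 0.79 ± 0.17, adjusted p = 0.0054), a receptor of type III collagen. Of 9 transcription factors known to act on collagen genes, 4 were higher in Wnt9bKO (0.39) and 3 were higher and 1 lower from Rspo2KO to DKO (0.05). Sox9, the activator of Col2a1, was at 8.78 and 8.93 RPKM in wt, 17.8, 10.4 and 13.8 in Rspo2KO, 10.9, 15.3 and 16.8 in Wnt9bKO and 12.9, 9.64 and 14.6 in DKO. It was called from wt to Wnt9bKO (0.69 ± 0.23, adjusted p = 0.030), and its Rspo2KO libraries overlapped with those of Wnt9bKO.

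Col4a3bp, the lipid transfer gene that the symbol rule also met, was at 4.63 and 5.77 RPKM in wt and at 5.16 to 6.53 RPKM in the other 9 libraries. It was not called from wt to Wnt9bKO (0.30 ± 0.12, adjusted p = 0.076).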

How the data were processed

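Single-end 50 bp reads of facial process RNA had been trimmed with cutadapt, mapped to GRCm38 with STAR and counted per gene with HTSeq by the authors, who deposited raw counts for each library. The annotation release and the strand setting are not given in the sources used here. From the deposited counts, symbols and exon lengths were taken from GENCODE M21 (36723 of 38561 identifiers matched), and RPKM were computed on library totals of 11136166 to 18017344 counts, which TMM scaled to 11206577 to 18800410. Genes passing filterByExpr (17317) were tested with edgeR 4.0.16 (R 4.3.3; quasi-likelihood, a mean per genotype label over all 11 libraries) and adjusted by Benjamini-Hochberg, with an adjusted p below 0.05 as the only threshold. Standard errors are the log2 fold change divided by the root of its F statistic. Alternatives were DESeq2 1.42.0, other scaling factors and filters, only the groups compared, autosomal protein-coding genes only, a replicate block, an offset for GC content and exon length (loess span 0.3), and leaving libraries out. The fits were tested on simulated counts. None of the 10 pairs of libraries within a label was a duplicate.

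The members and the lists were chosen with earlier results of these data known. Genes named were the 12 members highest in wt, up to 14 called members per comparison, partner chains, members at the floor of 3 counts, and up to 4 called genes per partner list; Itgb1, Colgalt1, P4hb, Fn1, Sox9 and marker genes come from these lists, and further uncalled members were chosen after their values were seen. Promoter letters come from RefSeq windows (GRCm38.p6), with 9 of the 44 collagens without a window.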

Additional observations from a re-analysis of the deposited data

How the results depend on the processing

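The call of 13 of the 45 collagen results past the threshold held under all 22 alternatives: Col18a1 in its 4 comparisons, Col2a1 in Wnt9bKO against wt and against Rspo2KO, Col4a1, Col4a2 and Col5a2 in Wnt9bKO and in DKO against Rspo2KO, and Col27a1 in Wnt9bKO against Rspo2KO. No called collagen changed sign under any of them. The numbers of collagens called moved by more than 1.5 times as follows. With an offset for GC content and length, alone or with the replicate block, 8 were called in Wnt9bKO against wt, beside 14.5% and 14.8% of all genes. With the offset alone 5 were called in DKO against wt, beside 11.7% of all genes. With no filter on low counts the numbers were 15 in DKO against wt, 15 in DKO against Rspo2KO, 21 in Wnt9bKO against Rspo2KO, 1 in Rspo2KO against wt and 1 in the interaction, Col1a1 in both of the last (log2 fold change 0.94 and -0.90). Of all genes, in the same order, 9.95%, 6.52%, 8.41% and 1.72% were called higher, and 347 of 28095 were called in the interaction. With only the groups compared the numbers of collagens were 16 in DKO against wt, 14 in DKO against Rspo2KO and 8 in Wnt9bKO against Rspo2KO. Beside them 17.6%, 11.3% and 9.83% of all genes were called higher. Without both Wnt9bKO 2 and DKO 3, 14 collagens were called in DKO against wt and 21 in Wnt9bKO against Rspo2KO, beside 13.1% and 10.8% of all genes. Leaving out 1 library at a time gave 4 to 17 in Wnt9bKO against wt, 1 to 15 in DKO against wt, 4 to 12 in DKO against Rspo2KO and 6 to 20 in Wnt9bKO against Rspo2KO, and 0 in the others. At the low ends 9.72%, 5.98%, 4.84% to 5.67% and 7.48% of all genes were called higher, so the collagen share in the first 2 was near or below that of all genes. At the high ends 16.3%, 16.3%, 10.9% and 11.3% of all genes were called higher. Beyond the fewer libraries or genes, the cause of these moves was not tested.

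Of 15 pairs of same-numbered libraries, 3 had a correlation over 0.1, so the numbers were not taken to pair the samples, although among the mutant labels all 9 such pairs were positive (0.041 to 0.24) and 15 of 18 pairs with different numbers negative. With the replicate block the numbers called were 14 in Wnt9bKO against wt, 11 in DKO against wt, 10 in DKO against Rspo2KO and 15 in Wnt9bKO against Rspo2KO. With only 2 wt libraries, small changes of collagens at low counts may have been missed at this depth.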
